A study of Mus musculus with 32 samples.

Results

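Mouse heart was compared with brain, kidney and liver in m6A pulldown libraries, that is, in sheared RNA recovered with an antibody to N6-methyladenosine (MeRIP-Seq). The heart pulldown comprised 4 of the 32 samples listed, which were 2 runs each of Frozen (flash frozen) and FFPE heart (fixed in 10% formalin and embedded in paraffin). The table of normalised values held 1 column for each organ and preservation, so the members were 2 of 8 columns, Heart-Frozen and Heart-FFPE, each set against the mean of the Brain, Kidney and Liver columns of the same preservation. The 14864 of 27179 genes with a log2 level above 0 in at least 2 columns were tested. Strain, sex, age and the number of mice were not in the labels, and no genetic change or drug was listed for any group. How many animals or runs stand behind a column was not given in the sources used here, so the p-values below measure how alike frozen and FFPE tissue behaved and not how alike animals were. A pulldown level can reflect the amount of a transcript, its methylation and unmethylated RNA carried along. Because the Input libraries were not analysed here, these cannot be told apart in any result below. Likewise, in a piece of organ, more cells of a type and more RNA per cell cannot be told apart.

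N6-methyladenosine is the most common internal modification of messenger RNA, placed by a nuclear writer complex built around Mettl3 and Mettl14, removed by Fto and Alkbh5, and read by proteins of the YTH family. Heart muscle cells contract through interlocking thick filaments of myosin and thin filaments of actin, set in motion by calcium released from the sarcoplasmic reticulum. They draw most of their ATP from mitochondrial oxidation of fatty acids, and they use muscle forms of many enzymes for which other organs use another gene. Most of the organ's cells are not muscle but endothelium, fibroblasts, mural cells and immune cells.

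The frozen and FFPE heart columns held 19406911 and 13636069 counts, against 9603050 to 21523379 in the other organs. Of these, 79.7% and 71.9% fell on 4 ribosomal RNA genes in heart, against 50.4 to 79.5% elsewhere, which left 3941363 and 3825381 counts on other genes in heart. Levels are given as log2 CPM (counts per the size of the scaled library, as deposited), with frozen heart before FFPE heart, and a level of 3 counts was -1.89 and -1.73 there. Xist, the X-inactivation transcript, stood at -0.054 and 7.85 in frozen and FFPE heart against -2.64 to 0.28 in the other frozen columns and 7.56 to 9.47 in the other FFPE columns. Xist is transcribed from the inactive X chromosome of female cells. Since the labels give no sex, the sex of the mice and preservation cannot be told apart in any gap between frozen and FFPE heart below, and heart was set only against organs of the same preservation.

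The labelled organ was checked against its markers. All 12 cardiomyocyte markers were called higher in heart, a call meaning an adjusted p under 0.05 in limma over all genes tested, against 15.9% of all genes. Titin, the giant spring of the sarcomere, took 6.99% (95% Wilson interval 6.96 to 7.01%) of non-ribosomal counts in frozen heart and 8.58% (95% Wilson interval 8.55 to 8.61%) in FFPE heart, and at most 0.0372% in any other column. These intervals cover counting error only. In limma none of the 12 hepatocyte and none of the 12 nephron markers was higher in heart (0 and 0 at an unadjusted p under 0.05). Of them 11 and 9 were lower, against 18.1% of all genes. The mean includes liver and kidney, where these markers are highest, so this outcome was largely fixed in advance. Against brain alone, 5 hepatocyte markers were higher and 1 lower, and 2 nephron markers were higher and 1 lower. Among all genes 19.1% were higher and 26.3% lower against brain.

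Brain transcripts were present in the frozen heart column. The 13 neuron markers had 920 counts there, none of them at 0, and lay a median of -4.44 log2 from frozen brain (range -5.74 to -3.90). In FFPE heart the same median was -6.63 from FFPE brain, with 398 counts, whereas for kidney and liver tissue it lay between -9.33 and -8.29. The 12 glia markers lay a median of -4.77 from brain in frozen heart and -6.52 in FFPE heart, against -6.95 to -6.07 in kidney and liver. In the other direction, the 20 genes named below as highest in heart were seen in every other organ. Their medians were -10.36 (frozen brain) to -8.09 (frozen kidney) log2 relative to heart, with 3 of the 20 at 0 counts in FFPE brain and in FFPE liver. These genes were ranked by their difference from the other organs. Low levels elsewhere thus follow from the ranking, and the medians cannot be set against those of the brain markers. Where these counts came from was not tested.

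Across all genes, 2370 were higher and 2691 lower in heart than the mean of the other 3 organs, which is 15.9% and 18.1% of the 14864 tested. Of those tested, 467 genes passed the filter on low levels only with the help of the heart columns, 215 of them through the heart columns alone. Such genes had to be high in heart, so no p is given for those named, and counts and medians of lists that hold them are descriptions only. Their number is given for each list that holds 3 or more, beside the count under a stricter filter (log2 above 1 in 4 or more columns). Differences below are log2 heart minus the mean of brain, kidney and liver, with the standard error of the fit. The median over all genes was -0.15, which shifted to -0.69 when columns were scaled by their total gene counts and to 0.0077 after quantile normalisation. Under those scalings the counts higher and lower were 1107 and 3508, and 3075 and 2575. Of the genes called higher, 1664 lay above all 3 other organs in both preservations, a pattern held by 14.0% of all genes whether called or not. The remaining 706 lay below at least 1 other column, and 209 of them were at or below brain in both preservations. A call against the mean is thus not a call against each organ, and counts against single organs are given beside the gene groups where they differ. Against brain, kidney and liver alone, 19.1%, 13.4% and 22.0% of genes were higher in heart and 26.3%, 16.8% and 19.5% lower. These 3 comparisons share the heart columns. Without the frozen heart column, which holds more brain transcripts than the FFPE heart column, the median difference over all genes was -0.14. Without the FFPE heart column that median was -0.089.

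The genes that stood furthest above every other organ were mostly genes of contraction and of calcium and energy supply to it. Among genes called higher with a mean heart level of at least 3, ranked by the smallest of the 6 differences between a heart column and another organ, the first 10 were Nppa, Tnnt2, Tnni3, Lmod2, Myl2, Myh6, Mb, Hrc, Ttn and Ckm, followed by Myoz2, Trim54, Pln, Mybpc3, Myl3, Tnnc1, Myl7, Tcap, Ckmt2 and Txlnb. Besides the myosin and troponin chains, they include Nppa, a hormone of heart muscle, Mb, which stores oxygen, Lmod2, which sets thin filament length, Ckm and Ckmt2, creatine kinases of muscle, Trim54, a ubiquitin ligase at microtubules, Tcap, which caps titin, and Txlnb, a muscle taxilin. Of the 20, Nppa, Lmod2, Hrc, Ckm, Myoz2, Trim54, Myl7, Tcap and Ckmt2 passed the filter only with the help of the heart columns. Mb had 18930 and 12520 counts in frozen and FFPE heart, against 24 to 73 in the other 6 columns. The promoters of 4 are shown, since these genes were ranked together by the same rule. The RefSeq table (build GRCm38.p6, the assembly that mm10 names) holds the 250 bases before and 50 after the annotated start for 18 of the 20. Each is written 5′ to 3′ on the gene's strand. Capitals mark matches on either strand to TATAAA, the core promoter box, CATTCC, the core of the site bound by TEAD factors, AGATAA, bound by zinc finger factors of heart muscle, and the MEF2 and CArG motifs by name. Neighbouring matches can overlap, because several of these motifs share letters. Counted from the annotated start, the first base of the TATAAA match was at 1 in Myh6 and at -9 in Nppa. The Myh6 window lies inside the span given for that gene below, short of its outer 5′ end. The Myh6 promoter lies at chr14:54966558-54966857, minus strand, that of Nppa at chr4:148000472-148000771, plus strand, that of Tnnt2 at chr1:135836084-135836383, plus strand, the first of its 2 starts in the table, and that of Ttn at chr2:76982498-76982797, minus strand.
Myh6: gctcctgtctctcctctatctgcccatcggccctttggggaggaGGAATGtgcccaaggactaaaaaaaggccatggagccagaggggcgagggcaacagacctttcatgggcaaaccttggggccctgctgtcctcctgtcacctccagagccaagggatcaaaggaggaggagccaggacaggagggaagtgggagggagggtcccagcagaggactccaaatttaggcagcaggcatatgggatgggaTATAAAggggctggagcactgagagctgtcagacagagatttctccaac
Nppa: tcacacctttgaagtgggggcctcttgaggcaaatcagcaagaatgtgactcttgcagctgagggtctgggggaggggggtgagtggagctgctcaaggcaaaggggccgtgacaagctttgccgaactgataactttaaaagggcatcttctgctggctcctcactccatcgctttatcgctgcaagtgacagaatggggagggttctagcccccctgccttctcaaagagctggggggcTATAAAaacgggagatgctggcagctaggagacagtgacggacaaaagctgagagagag
Tnnt2: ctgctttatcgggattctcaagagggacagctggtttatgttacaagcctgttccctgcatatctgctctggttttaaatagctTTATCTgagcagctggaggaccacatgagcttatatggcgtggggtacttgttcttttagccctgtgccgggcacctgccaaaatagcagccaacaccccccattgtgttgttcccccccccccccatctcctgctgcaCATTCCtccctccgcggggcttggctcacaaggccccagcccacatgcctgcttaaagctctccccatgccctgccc
Ttn: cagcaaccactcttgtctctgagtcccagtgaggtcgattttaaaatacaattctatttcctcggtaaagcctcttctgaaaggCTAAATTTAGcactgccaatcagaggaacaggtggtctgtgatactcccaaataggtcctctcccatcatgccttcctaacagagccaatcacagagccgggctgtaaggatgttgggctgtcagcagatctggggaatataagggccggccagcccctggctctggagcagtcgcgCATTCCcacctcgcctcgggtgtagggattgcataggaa

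Among the 22 promoters of the 18 genes, 7 held CATTCC, against 14.7% of all 32851 promoters in the table. TATAAA was in 4 of them and in 13.6% of all. AGATAA was in 3 and 11.2%, the MEF2 motif in 3 and 3.19%, and the CArG motif in 2 and 1.63%. These are matches of letters within a short window and were not tested.

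**Figure D1:**
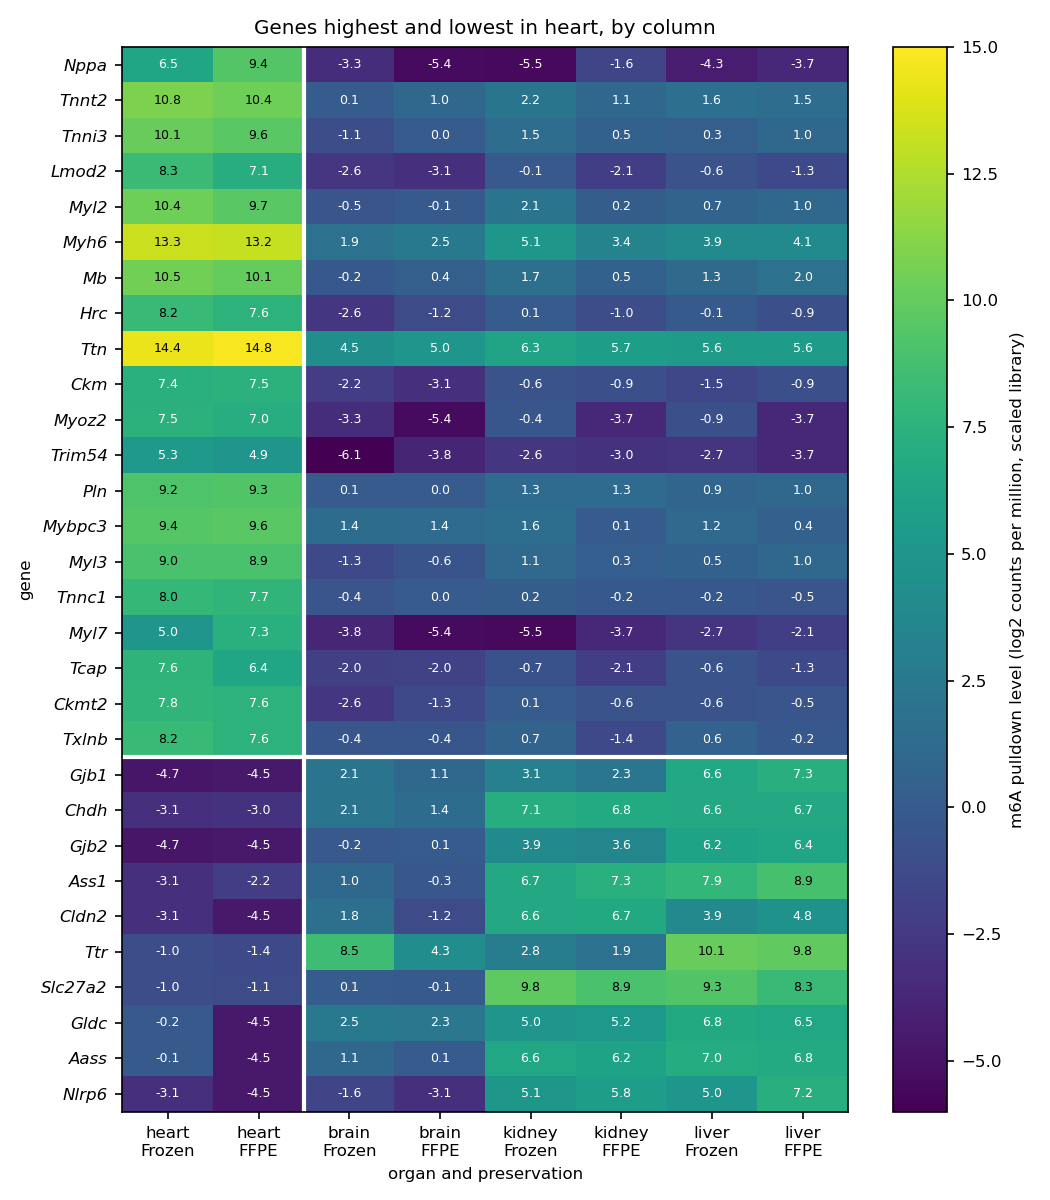
Pulldown level (colour and printed value, log2 CPM of the scaled library) of the 20 genes ranked highest and 10 genes ranked lowest in heart, in the 2 heart columns at left and the 6 columns of brain, kidney and liver at right. Ttn and Myh6 are the brightest rows, at 14.37 and 13.33 in frozen heart, and Gjb1 and Gjb2 had 0 counts in both heart columns.

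Myosin and its partners made up the first group. Myh6 (chr14:54941921-54968017), the fast alpha myosin of adult mouse heart, stood at 13.33 and 13.18 in frozen and FFPE heart, against 1.86 and 2.45 in brain, 5.13 and 3.43 in kidney and 3.93 and 4.08 in liver. Both heart columns were at least 8.20 log2 above every other column of their preservation. Its difference was 9.78 ± 0.36 (adjusted p = 1.13e-06). Myh7, the slow beta myosin of the fetal mouse ventricle, stood at 7.19 and 6.0 in frozen and FFPE heart and differed by 7.24 ± 0.62 (adjusted p = 6.15e-05). In all, 11 of 12 thick filament genes tested were higher, with a median difference of 8.61, or 8.30 with levels under 3 counts raised to 3 counts. Among them were the M-band proteins Myom1 (7.64) and Myom2 (8.82), which cross-link myosin, the myosin kinase Mylk3 (8.68) and the myosin-binding protein Mybpc3 (8.54). Myom3 was the member not called, at 0.92 and 1.07 in heart and 2.15 in frozen liver. Of these, 4 of the 12 passed the filter only with the help of the heart columns, and with the stricter filter 4 of 4 were higher.

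Thin filament genes followed, with 12 of 13 higher (median 6.62). Here 3 of the 13 passed the filter only with the help of the heart columns, and with the stricter filter 7 of 8 were higher. Tnnt2, the troponin that ties the complex to tropomyosin, stood at 10.82 and 10.38 in frozen and FFPE heart, against 0.13 and 1.02 in brain, 2.20 and 1.12 in kidney and 1.65 and 1.47 in liver. Tnni3, the inhibitory troponin of adult heart, was higher by 9.49 ± 0.39 (adjusted p = 1.50e-06) and Tnnc1, the calcium sensor, by 8.09 ± 0.30 (adjusted p = 1.13e-06). The cardiac actin gene Actc1 stood at 9.24 and 10.12 in frozen and FFPE heart, against -0.61 to 2.21 (median 1.21) in the other 6 columns, and the skeletal actin gene Acta1 at 4.93 and 5.92 in frozen and FFPE heart, against -5.29 to -0.74 (median -1.67) in the other 6 columns. Tpm1, the main tropomyosin of heart, differed by 6.16, whereas Tpm2 and Tpm4, which many organs make, differed by 1.39 and 1.64. Tnni1, the troponin I of slow muscle and fetal heart, did not pass the filter on low levels, at -2.38 and -1.08 in heart. Neb, the giant thin filament protein of skeletal muscle, was not called (adjusted p = 0.138): it stood at 4.49 and 3.87 in heart and 3.69 and 6.47 in liver.

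The 22 genes tested of titin and the Z-disc, the plate that anchors thin filaments, were higher in heart (median 7.24, or 6.86 with low levels raised to 3 counts), but 7 of the 22 passed the filter only with the help of the heart columns, and with the stricter filter 12 of 12 were higher. Ttn (chr2:76703980-76982557) stood at 14.37 and 14.78 in frozen and FFPE heart, against 4.46 and 5.0 in brain, 6.29 and 5.73 in kidney and 5.60 and 5.58 in liver, a difference of 9.14 ± 0.21 (adjusted p = 1.06e-07). The Z-disc proteins Actn2 (7.92), Ldb3 (7.21), Csrp3 (8.39) and Nexn (6.38) differed by several log2 units, and Pdlim5, which other organs also make, by 3.07. The muscle ubiquitin ligases Trim63 and Fbxo32, which mark proteins for breakdown, were higher by 7.27 and 4.25. Ankrd2 and Myoz1, Z-disc genes of skeletal muscle, did not pass the filter, while their heart relatives Ankrd1 and Myoz2 stood at 7.90 and 7.66 and at 7.53 and 7.05 in frozen and FFPE heart.

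Calcium handling genes were higher in 17 of 20 cases and lower in 1. Here 4 of the 20 passed the filter only with the help of the heart columns, and with the stricter filter 11 of 13 were higher. Pln, the brake on the calcium pump, stood at 9.24 and 9.31 in frozen and FFPE heart, against 0.053 and 0.001 in brain, 1.34 and 1.31 in kidney and 0.88 and 0.98 in liver (difference 8.51 ± 0.19, adjusted p = 1.06e-07). Its target Atp2a2, the pump itself, was present in every organ and stood at 11.06 and 11.54 in frozen and FFPE heart, against 6.57 to 7.92 (median 7.34) in the other 6 columns, a difference of 4.04 ± 0.21. Ryr2, the calcium release channel, stood at 10.04 and 10.72 in frozen and FFPE heart, against 6.86 and 7.59 in brain, 2.75 and 2.57 in kidney and 2.05 and 1.95 in liver, so brain held the nearest level. The calcium store proteins Casq2 (7.01), Hrc (8.84) and Trdn (8.19) and the membrane coupler Jph2 (6.85) were all higher. By organ, the calcium genes were 12 higher and 1 lower against brain, 16 and 1 against kidney, and 17 and 0 against liver.

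Ion channel genes were higher in 16 of 20 cases against the mean, where 15.9% of all genes were. Against brain 5 were higher and 5 lower, near the 19.1% and 26.3% of all genes. Against kidney and liver 16 and 19 were higher, where 13.4% and 22.0% of all genes were. Kcnj5 and Kcnj3, which together form the acetylcholine-gated potassium channel of pacemaker and atrial cells, differed by 5.96 and 5.86. Kcnj3 stood at 3.70 and 5.49 in heart and at 4.27 and 4.05 in brain, so the frozen heart level was below frozen brain and the FFPE level above FFPE brain. Hcn4, the pacemaker channel, stood at 1.08 and 2.09 in heart, next to brain at 1.42 and 1.54. Without the FFPE heart column 8 of these genes were higher, and without the frozen heart column, which carries brain transcripts, 15. The part of the brain transcripts in the levels of channels that brain also makes was not tested.

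Every gene of the intercalated disc, the joint between heart muscle cells, was higher against the mean (15 of 15, median 2.80). Des, the muscle intermediate filament, stood at 8.47 and 8.11 in frozen and FFPE heart, against -1.24 to 2.60 (median 0.86) in the other 6 columns. Gja1, the main gap junction protein of working muscle, stood at 6.42 and 7.09 in frozen and FFPE heart, against 6.0 and 5.40 in brain, 1.88 and 1.51 in kidney and 1.82 and 1.95 in liver, so frozen heart and frozen brain were close. The desmosome genes Dsp (5.04), Pkp2 (2.80), Dsg2 (2.25) and Dsc2 (3.08) were higher too, but Dsg2 and Dsc2 had liver levels next to those of heart: Dsg2 stood at 5.17 and 5.05 in heart and 5.72 and 6.16 in liver. Against liver, 10 of the 15 were higher and 1 was lower. In the dystrophin complex, which couples the contractile apparatus to the matrix, 15 of 17 were higher, but 8 of the 17 passed the filter only with the help of the heart columns, and with the stricter filter 7 of 9 were higher. Dmd itself stood at 7.64 and 7.77 in frozen and FFPE heart, against 5.56 and 5.70 in brain, 2.99 and 3.17 in kidney and 3.27 and 3.48 in liver (difference 3.68 ± 0.13, adjusted p = 1.07e-06). The muscle sarcoglycan Sgca stood at 3.56 and 3.75 in frozen and FFPE heart and had at most 3 counts in every other column, which puts heart at least 59.4-fold higher with each column's level of 3 counts as the floor. Sntb1, a syntrophin of many tissues, was lower (-1.09), with 1.32 and 0.59 in heart against 4.66 and 4.79 in liver; without the liver columns its difference was 0.25.

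**Figure D2:**
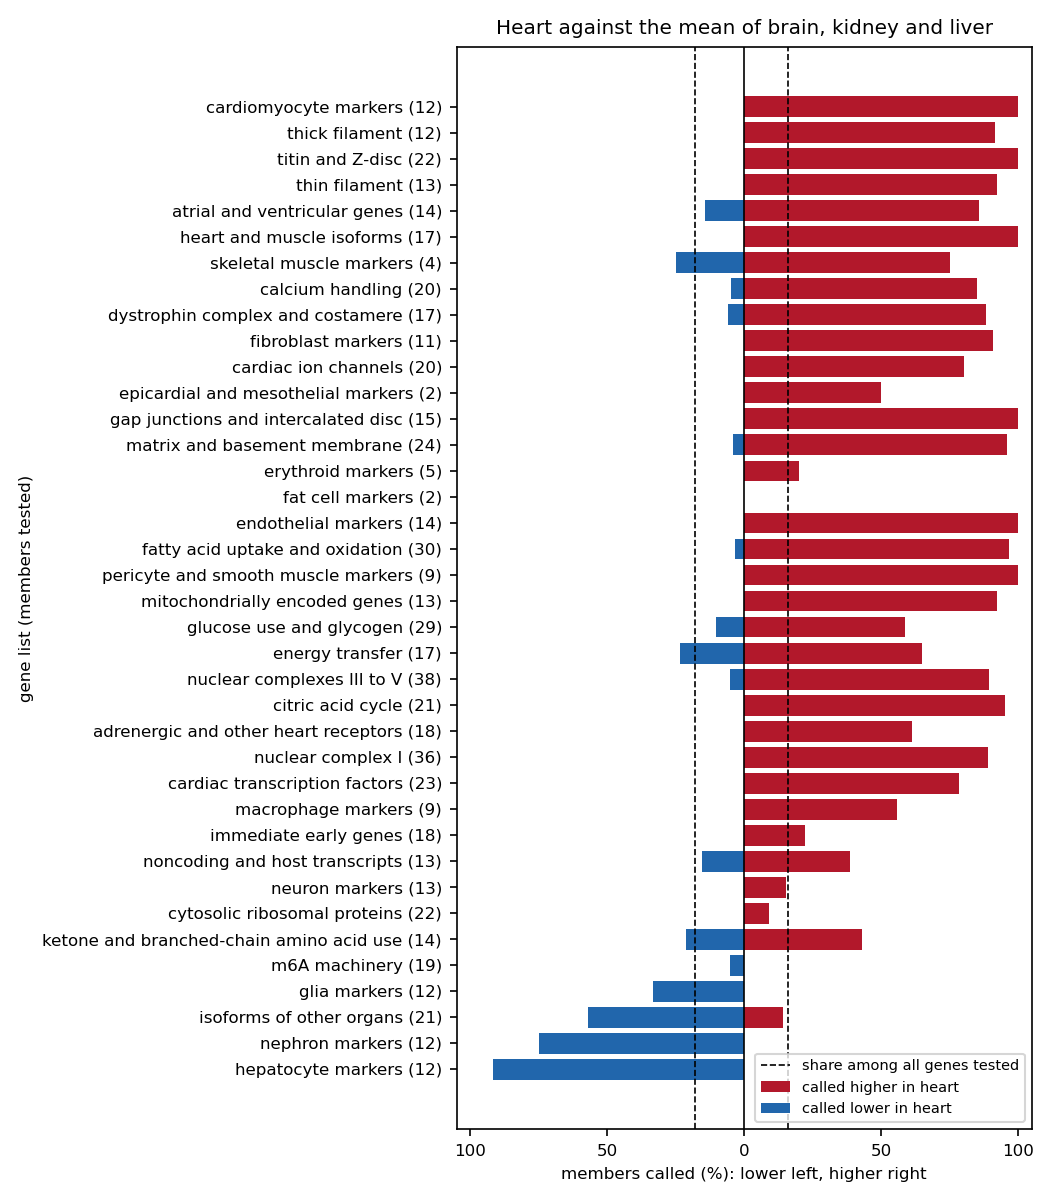
Share of the members tested of each gene list that was called higher (right, red) or lower (left, blue) in heart than the mean of brain, kidney and liver, ordered by the median difference, with the number of members tested in brackets. The dashed lines mark the 15.9% and 18.1% of all genes tested that were called higher and lower, and the contractile lists reach from 91.7 to 100% higher, with members included that passed the filter only with the help of heart.

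Several genes of the heart chambers stood at different levels in the 2 heart columns. Nppa, the atrial natriuretic peptide (chr4:148000722-148002074), stood at 9.37 in FFPE and 6.46 in frozen heart, against -5.45 to -1.58 in the other 6 columns, a difference from the other organs of 11.87 ± 1.10, or 10.00 with low levels raised to 3 counts. The atrial light chains Myl7 and Myl4 stood 2.32 and 2.48 log2 higher in the FFPE than in the frozen heart column, the calcium pump regulator Sln 2.13, the atrial myosin-binding protein Mybphl 2.38 and Nppa 2.90. Bmp10, a growth factor of atrial muscle, had 572 counts in FFPE and 5 in frozen heart, levels of 5.62 and -1.24. The ventricular light chain Myl2 stood at 9.66 in FFPE and 10.40 in frozen heart, the other way round. Over all genes tested, 6.06% were at least 2-fold higher in the FFPE heart column and 18.2% in the frozen one. With 1 column each, these gaps between FFPE and frozen heart have no replicate check and were not tested. Against the other organs, 12 of 14 chamber genes were higher, and 8 were without the FFPE heart column. However, 9 of the 14 passed the filter only with the help of the heart columns, and with the stricter filter 2 of 4 were higher and 2 lower. The members lower in heart were Nr2f2 (-0.88), an atrial and venous regulator that kidney and liver hold at 4.39 to 5.83, and Stard10 (-1.39), a lipid carrier of liver.

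**Figure D3:**
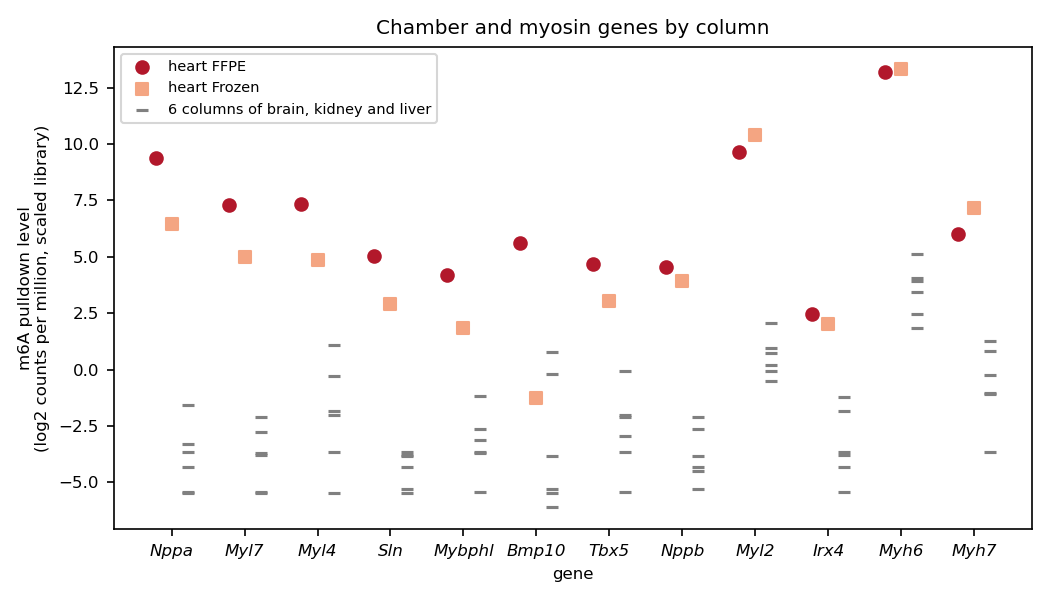
Pulldown level (log2 CPM of the scaled library) of chamber and myosin genes in FFPE heart (red circles), frozen heart (orange squares) and the 6 columns of brain, kidney and liver (grey dashes). The 7 genes at left stand higher in FFPE than in frozen heart, from 1.65 log2 for Tbx5 to 6.86 for Bmp10, and Myl2 and Myh7 stand lower.

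Of 23 transcription factors and coactivators of heart muscle tested, 18 were higher (median difference 1.32), or 11 with scaling by total gene counts. Of these genes, 5 of the 23 passed the filter only with the help of the heart columns, and with the stricter filter 13 of 17 were higher. Nkx2-5, which specifies the cardiac lineage, had 118 and 171 counts in frozen and FFPE heart and at most 3 in any other column, so that heart was at least 54.6-fold higher with 3 counts per column as the floor. Nkx2-5 passed the filter only through the heart columns. Tbx20 stood at 4.96 and 5.89 in frozen and FFPE heart, against -3.78 to 2.06 (median -1.73) in the other 6 columns and the muscle coactivator Myocd at 4.64 and 5.48 in frozen and FFPE heart, against -2.62 to -0.32 (median -0.86) in the other 6 columns. Gata4, shared with liver, stood at 3.65 and 4.90 in frozen and FFPE heart, against -4.51 and -5.43 in brain, -2.28 and -1.38 in kidney and 2.18 and 2.99 in liver (difference 5.68 ± 0.58). The general muscle factors Mef2a (1.13), Mef2c (1.69), Srf (1.32) and Tead1 (2.16) were higher too, and Mef2c lay below brain in both preservations, at 4.44 and 4.90 in heart against 5.75 and 5.84 in brain. Among regulators of mitochondrial genes, Ppargc1a was higher by 1.26 with kidney close to heart. Esrra (adjusted p = 0.0878) and Ppara (adjusted p = 0.878) were not called: Ppara, the fatty acid sensor, stood at 4.28 and 5.22 in heart and 7.91 and 6.89 in liver.

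Of 30 genes of fatty acid uptake and oxidation, 29 exceeded the mean of the other organs (median 2.12), but by organ they were 30 higher and 0 lower against brain, 22 and 1 against kidney, and 14 and 3 against liver. The median difference was 4.47 against brain, 1.45 against kidney and 0.64 against liver. Lpl, which frees fatty acids from lipoproteins, stood at 9.97 and 9.80 in frozen and FFPE heart, against 2.29 and 1.96 in brain, 6.98 and 7.07 in kidney and 3.64 and 3.02 in liver (difference 5.73 ± 0.16, adjusted p = 2.77e-07), and Fabp3, the fatty acid carrier of heart, at 8.01 and 7.71 in frozen and FFPE heart, against -1.34 to 2.45 (median 1.64) in the other 6 columns. Acadm, which oxidises medium-length chains, stood at 7.75 and 7.27 in frozen and FFPE heart, against 2.88 and 2.46 in brain, 7.70 and 6.69 in kidney and 7.82 and 6.29 in liver, so heart was next to kidney and liver and far above brain. Hadha and Hadhb, subunits of the trifunctional enzyme, differed by 2.55 and 3.22. Without the brain columns 21 of the 30 were higher, and the differences of Acsl1, Acads and Hadh turned to -0.043, -0.20 and -0.028. At the entry of fatty acids into mitochondria, Cpt1b, the muscle form, had 33 and 34 counts in heart, passed the filter only through the heart columns and differed by 3.87 ± 1.13, or 2.93 with low levels raised to 3 counts, while Cpt1a, the liver form, was the member called lower (-1.32 ± 0.18, adjusted p = 0.000728). For other fuels, Oxct1, which lets tissues burn ketone bodies and which liver lacks, stood at 7.57 and 7.65 in frozen and FFPE heart, against 5.82 and 5.64 in brain, 7.66 and 7.62 in kidney and 1.90 and 1.83 in liver. Of the 14 genes of ketone and branched-chain amino acid use, 6 were higher and 3 lower, 1 higher without the brain columns and 1 higher without FFPE heart.

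In the citric acid cycle 20 of 21 genes were higher (median 1.53), with Suclg2 not called (adjusted p = 0.638). Idh2, the NADP-linked isocitrate dehydrogenase, was higher by 3.38 ± 0.13 (adjusted p = 1.33e-06), with 7.71 and 7.47 in frozen and FFPE heart, against 2.32 and 2.09 in brain, 5.95 and 5.69 in kidney and 4.61 and 4.59 in liver. Cs, citrate synthase, differed by 2.44 and Ogdh, the oxoglutarate dehydrogenase, by 2.32. For complex I, the NADH dehydrogenase, 32 of 36 were higher (median 1.34), against 15.9% of all genes. In both preservations 34 of the 36 lay above all 3 other organs of the same preservation, against 14.0% of all genes. For complexes III to V, 34 of 38 were higher and 2 lower (median 1.54). Scaling by total gene counts left 10 calls in the citric acid cycle, 9 in complex I and 19 in complexes III to V, and leaving out FFPE heart left 15, 20 and 27.

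The 13 protein genes of the mitochondrial genome took 7.93% (95% Wilson interval 7.91 to 7.96%) and 6.73% (95% Wilson interval 6.71 to 6.76%) of non-ribosomal counts in frozen and FFPE heart, against 1.14 to 4.64% in the other columns. The deposited table names them without the mt- prefix. COX1, the catalytic subunit of cytochrome oxidase, stood at 12.56 and 12.97 in frozen and FFPE heart, against 9.88 and 9.80 in brain, 10.26 and 11.70 in kidney and 10.96 and 12.85 in liver, so FFPE liver nearly matched FFPE heart. Of the 13, 12 were higher against the mean, against 15.9% of all genes. In both preservations 6 lay above all 3 other organs of the same preservation, against 14.0% of all genes. Against liver alone 1 was higher, with FFPE liver close to or above FFPE heart. Without frozen heart 1 was called, without FFPE heart 7, without the brain columns 4 and after quantile normalisation 6, where COX1 changed sign to -0.033.

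In 14 pairs of a heart or muscle form of a protein and another form, chosen with results of these data known, all 14 heart forms were higher and 10 of the other forms were lower, while 4 were not called. In the longer list of 21 forms of other organs, 12 were lower, 6 not called and 3 higher, which were Pygb (4.29), Fabp5 (1.49) and Acadl (2.61), and against brain alone 6 were higher. Among the heart and muscle forms, 5 of the 17 passed the filter only with the help of the heart columns, and with the stricter filter 10 of 10 were higher. In cytochrome oxidase, Cox6a2, Cox7a1 and Cox8b are subunit forms of heart and skeletal muscle. Cox6a2 stood at 6.98 and 6.21 in frozen and FFPE heart, against -1.34 and -1.52 in brain, -3.13 and -1.58 in kidney and -0.87 and -0.20 in liver, and its counterpart Cox6a1 at 2.92 and 3.11 in frozen and FFPE heart, against 5.25 and 4.10 in brain, 5.88 and 5.13 in kidney and 5.80 and 5.26 in liver. These genes lay on opposite sides, with differences of 8.04 ± 0.53 and -2.22 ± 0.23 (adjusted p of Cox6a1 = 0.000179), and neither gene's heart values overlapped those of the other organs. Cox6a2 and Cox8b passed the filter only through the heart columns, so for Cox6a2 the lack of overlap follows from the filter. Levels below all 3 other organs in both preservations, as in Cox6a1, were held by 12.9% of all genes. Cox8b and Cox8a showed the same order, with 8.44 ± 0.66 and -1.92 ± 0.30 (adjusted p of Cox8a = 0.00147), and Cox6a1 and Cox8a were the only members of complexes III to V called lower. Cox7a1 differed by 7.17 ± 0.74, while Cox7a2 was not called (0.76 ± 0.26, adjusted p = 0.0512). Of the carriers that exchange ADP for ATP across the inner membrane, Slc25a4 stood at 9.33 and 9.31 in frozen and FFPE heart, against 1.56 to 6.45 (median 5.15) in the other 6 columns and Slc25a5 at 4.02 and 4.51 in frozen and FFPE heart, against 3.66 to 6.07 (median 5.77) in the other 6 columns. Slc25a5 was called lower (-1.06 ± 0.25, adjusted p = 0.0112) although its heart levels lay within the range of brain.

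In glycolysis, Eno3, the muscle enolase, stood at 7.35 and 7.52 in frozen and FFPE heart, against 0.35 and 1.02 in brain, 1.29 and 1.31 in kidney and 0.63 and 1.95 in liver, and Eno1, the enolase of most tissues, at 3.0 and 4.08 in frozen and FFPE heart, against 6.13 and 5.25 in brain, 5.81 and 5.75 in kidney and 6.82 and 5.73 in liver. Their differences were 6.34 ± 0.29 (adjusted p = 2.15e-06) and -2.38 ± 0.36 (adjusted p = 0.00124). Pgam2 and Pgam1, phosphoglycerate mutases of muscle and of other tissues, differed by 6.29 ± 0.39 (adjusted p = 1.18e-05) and -2.33 ± 0.48 (adjusted p = 0.00638). Eno1, Pgam1, Slc25a5 and Cox8a belong to families with processed copies in the genome, and how reads that fit several copies were counted was not given in the sources used here, so their levels are uncertain. The insulin-responsive glucose transporter Slc2a4 stood at 4.55 and 5.46 and the transporter Slc2a1 of brain vessels and red cells at 1.87 and 0.95 in heart, with differences of 5.54 and -1.85. Creatine kinases, which buffer ATP, were split between Ckm and Ckmt2 in heart (8.93 and 8.62) and Ckb, which stood at 3.62 and 2.81 in heart against 7.79 and 6.61 in brain; the call of Ckb as lower (-0.68) turned to 0.97 without the brain columns. Pfkm and Ldhb were higher (3.40 and 2.72) while Pfkl and Ldha were not called (adjusted p = 0.202 and 0.367). In the wider lists, 17 of 29 genes of glucose and glycogen use were higher and 3 lower, and 11 of 17 of energy transfer were higher and 4 lower.

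**Figure D4:**
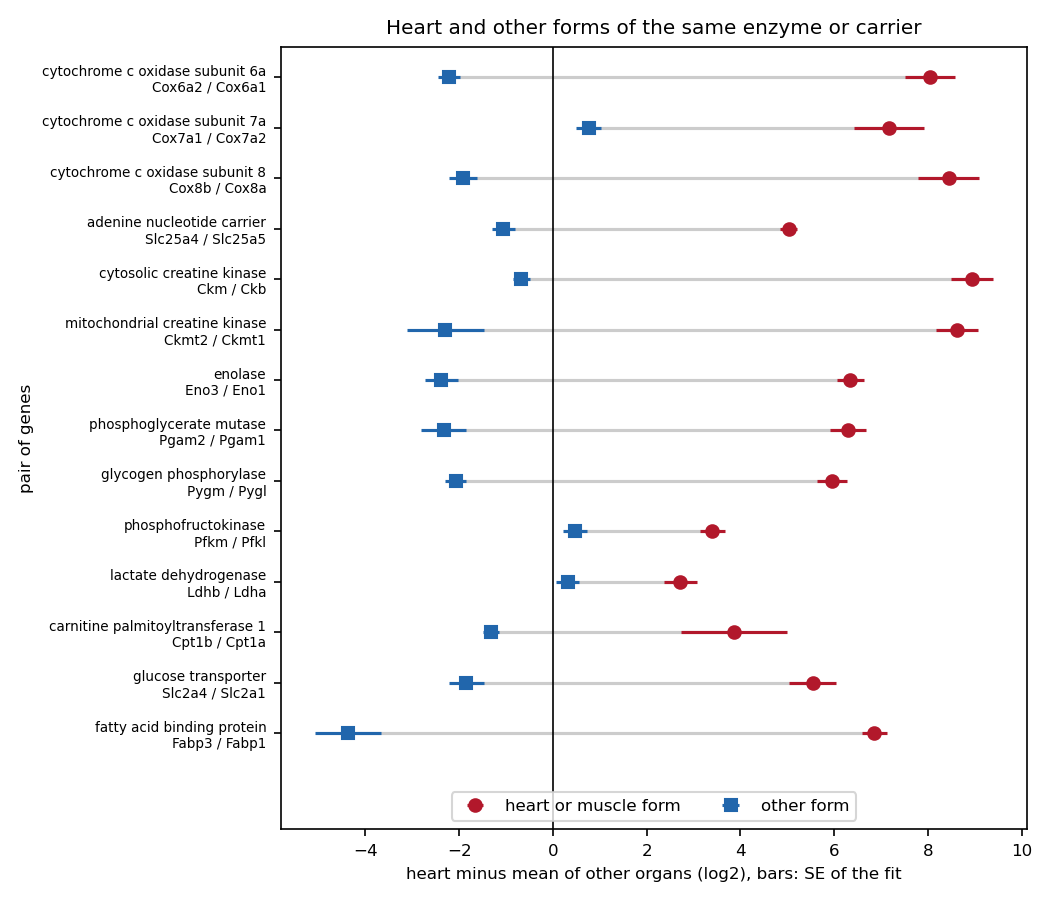
Heart minus the mean of brain, kidney and liver (log2, bars showing the SE of the fit) for 14 pairs of genes, the heart or muscle form as red circles and the other form as blue squares. All 14 circles lie right of the zero line, and the squares lie left of it except those of Cox7a2, Pfkl and Ldha, which were not called.

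Genes used as markers of non-muscle cells were higher in the same columns. In a piece of organ, their transcripts from heart muscle cells and from other cells cannot be told apart. All 14 endothelial markers were higher (median 2.26), 10 of them also against kidney alone. Cdh5, the endothelial cadherin, stood at 6.20 and 6.12 in frozen and FFPE heart, against 1.22 and 1.63 in brain, 4.05 and 3.76 in kidney and 3.84 and 3.88 in liver. Fabp4 and Cd36, which carry fatty acids across capillaries, stood at 7.95 and 6.48 and at 8.64 and 8.03 in frozen and FFPE heart. Cldn5, the tight junction protein of brain vessels, had a difference of 1.05 ± 0.32 (adjusted p = 0.0328), a call lost when either heart column was left out, with FFPE brain at 3.01 above FFPE heart at 2.74. All 9 mural markers tested were higher against the mean, but 3 were against kidney. Abcc9 and Kcnj8, the pair that forms the potassium channel of pericytes, differed by 3.96 and 2.98. Fibroblast genes were higher in 10 of 11 cases, and 23 of 24 matrix genes were, among them the laminins Lama2 (3.22) and Lamb2 (3.84) of the muscle cell's basement membrane and the perlecan gene Hspg2 (3.61). Fn1, plasma fibronectin made by liver, was the matrix gene called lower (-0.87), and turned to 0.95 without the liver columns.

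Macrophage markers were higher in 5 of 9 cases against the mean, in 3 without frozen heart, in 3 without FFPE heart and in 2 with scaling by total gene counts, while against liver alone 1 was higher and 1 lower. Lyz2 stood at 4.11 and 3.48 and Cd163 at 4.51 and 3.05 in frozen and FFPE heart (differences 3.30 and 3.28), while Csf1r, the growth factor receptor of macrophages, was not called, at 3.45 and 3.31 in frozen and FFPE heart, against 3.33 to 3.91 (median 3.67) in the other 6 columns. Globin transcripts, which mark red cells, differed between the heart columns: Hbb-bs stood at 7.14 in FFPE and 3.53 in frozen heart, and Hba-a1 at 5.01 and 1.87. Of the 5 erythroid markers Hba-a1 was called higher, and without frozen heart 4 were. Fat cell and mesothelial markers were mostly too low to test (2 of 8 and 2 of 6 tested). Of 10 skeletal muscle markers, 4 passed the filter, 3 of them only with the help of heart, and none passed the stricter filter. Those called higher were Acta1 and Ckm, which heart also makes, and Myh4, at 2.02 and 0.50 in heart (2.39 ± 0.63, a call lost when either heart column was left out). Of the brain markers, 2 of 13 neuron markers, Camk2a and Slc17a7, were called higher against the mean, near the 15.9% of all genes. Both lay below brain. Camk2a stood at 4.30 and 3.86 in heart against 8.20 and 7.97 in brain, and Slc17a7 at 2.15 and 3.61 against 6.13 and 6.34. Of the 12 glia markers none was higher (0 at an unadjusted p under 0.05) and 4 were lower in limma, against 1 lower without FFPE heart and 7 with scaling by total gene counts. Without the brain columns 3 glia markers were higher and 2 lower.

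Receptors and signalling genes of contraction were higher in 11 of 18 cases, in 6 without FFPE heart and in 7 with scaling by total gene counts. Chrm2, the muscarinic receptor through which the vagus slows the heart, stood at 4.64 and 5.06 in frozen and FFPE heart, against 2.76 and 1.02 in brain, -1.37 and -5.29 in kidney and -1.52 and -2.08 in liver (difference 5.93 ± 0.77, adjusted p = 0.000543). Adrb1, the beta-1 adrenergic receptor, stood at 1.68 and 2.62 in heart and 2.46 and 2.38 in brain, and was called higher against the mean (1.86, adjusted p = 0.0302), a call lost when either heart column was left out. Pde3a, the cyclic AMP hydrolase of heart and vessels, differed by 3.06. Grk2 (adjusted p = 0.380) and Gnas (adjusted p = 0.478) were not called.

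Few genes of the m6A machinery itself were called. Of 19 writers, erasers and readers tested in limma, none was higher (2 at an unadjusted p under 0.05, and 2 called after quantile normalisation) and 1, Rbm15b, a writer subunit, was lower (-0.68 ± 0.21, adjusted p = 0.0333), a call lost when either heart column was left out. Over all genes 15.9% were higher and 18.1% lower. The median difference of the 19 was -0.098. Mettl3 stood at 1.71 and 2.12 in frozen and FFPE heart, against 1.16 to 2.49 (median 2.13) in the other 6 columns, Mettl14 at 2.70 and 2.94 in frozen and FFPE heart, against 1.94 to 3.0 (median 2.05) in the other 6 columns, Fto at 4.02 and 4.14 in frozen and FFPE heart, against 3.71 to 4.98 (median 4.0) in the other 6 columns and Alkbh5 at 4.56 and 5.28 in frozen and FFPE heart, against 4.29 to 5.63 (median 5.24) in the other 6 columns, so each of these heart values lay within the range of the other columns. However, Mettl14 gained a call after quantile normalisation, with columns centred on their medians and without the brain columns. Of the cytosolic ribosomal protein genes, 2 of 22 were higher (median 0.15), which is 9.09% against 15.9% of all genes. After quantile normalisation 7 were. Their median difference was 0.023 in frozen and 0.39 in FFPE tissue. Immediate early genes, which respond to a stimulus without new protein synthesis, were higher in 4 of 18 cases, near the 15.9% of all genes, with a median difference of 1.44 in frozen and 0.24 in FFPE tissue. Without frozen heart 0 were called in limma (4 at an unadjusted p under 0.05). Fos stood at 3.12 and 0.10 and Egr1 at 5.04 and 2.23 in frozen and FFPE heart.

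Of 379 long noncoding RNAs tested 45 were higher and 30 lower in heart, and of 8 microRNA genes 1 was higher, against 15.9% of all genes higher and 18.1% lower. The microRNA gene was Mir208a (chr14:54949060-54949142), which lies within Myh6 (chr14:54941921-54968017) and is transcribed with it. It had 14 and 25 counts in frozen and FFPE heart and 0 in all 6 other columns, at least 7.37-fold higher in heart with 3 counts per column as the floor, and passed the filter only through the heart columns. Its sister Mir208b, within Myh7, had 2 and 0 counts in frozen and FFPE heart and 0 elsewhere, and did not pass the filter. The mature sequences are shown because they carry the same seed although they lie in different myosin genes. They are written 5′ to 3′ from RefSeq (GRCm38.p6) with the seed, bases 2 to 8, in capitals, and miR-208a-3p lies at chr14:54949072-54949093 and miR-208b-3p at chr14:54975710-54975731, both on the minus strand.
mmu-miR-208a-3p: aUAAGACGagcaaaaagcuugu
mmu-miR-208b-3p: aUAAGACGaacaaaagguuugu
The counts are of sheared RNA and can stem from the host transcript as well as from the microRNA precursor.

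Mhrt, a long noncoding RNA of the Myh7 locus transcribed opposite to it, had 333 and 564 counts in heart and 6 in FFPE brain, 1 in frozen kidney and 0 in the other 4 columns. Its difference was 9.30 ± 1.10, or 7.23 with low levels raised to 3 counts. Whether reads were assigned by strand was not given in the sources used here, so reads of Mhrt and Myh7 cannot be told apart where they overlap. Mir1a-1hg, the host of a muscle microRNA, had 70 and 192 counts in heart and at most 3 in any other column, at least 44.6-fold higher in heart with 3 counts per column as the floor. The imprinted RNA H19 stood at 3.82 and 2.86 in frozen and FFPE heart, against -5.43 to -0.42 (median -2.62) in the other 6 columns (difference 6.04 ± 0.65). Mhrt, Mir1a-1hg and H19 also passed the filter only with the help of heart. Malat1, an abundant nuclear RNA of all cells, was not called, at 12.72 and 13.35 in frozen and FFPE heart, against 11.66 to 13.82 (median 12.86) in the other 6 columns.

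At the other end, genes below all 3 organs in both preservations were ranked by the size of the difference from the mean, which liver and kidney levels can set. The first were Gjb1, Chdh, Gjb2, Ass1, Cldn2, Ttr, Slc27a2, Gldc, Aass and Nlrp6. Cldn2 is a tight junction protein of leaky epithelia, Ttr carries thyroid hormone in blood and cerebrospinal fluid, and Nlrp6 is a pathogen sensor of epithelia. Gjb1 and Gjb2, gap junction genes of liver and other epithelia, had 0 counts in both heart columns, so heart was at least 46.7-fold and 35.8-fold lower with 3 counts per column as the floor (adjusted p = 2.68e-06 and 1.50e-06). Chdh, which turns choline into betaine, had 1 and 1 counts in frozen and FFPE heart, against 146 and 56 in brain, 2921 and 2239 in kidney and 996 and 661 in liver. Ass1 of the urea cycle stood at -3.11 and -2.22 in frozen and FFPE heart, against 1.0 and -0.30 in brain, 6.71 and 7.31 in kidney and 7.90 and 8.92 in liver (difference -7.92 ± 0.41, adjusted p = 4.31e-06). Slc27a2, which activates very long fatty acids, stood at -1.0 and -1.08 in frozen and FFPE heart, against -0.068 to 9.75 (median 8.60) in the other 6 columns (difference -7.08 ± 0.21, adjusted p = 3.56e-07). Gldc, which breaks down glycine, and Aass, which breaks down lysine, were at -0.17 and -0.054 in frozen heart and had 0 and 0 counts in FFPE heart. Across all 2691 genes lower in heart, 1372 lay below all 3 other organs of the same preservation in both preservations. That pattern was held by 12.9% of all genes whether called or not. Of the genes lower in heart, 443 were at or above brain in both preservations.

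A set of genes was high in heart and in 1 other organ. The rule took genes from the 2370 called higher, with a mean heart level of at least 3 and unnamed gene models left out. Heart was not 2-fold above the organ in either preservation and was 2-fold above both others in both. By this rule 169 genes were shared with brain, 110 with kidney and 49 with liver. The part of the brain transcripts in the number shared with brain was not tested. Up to 5 genes of each with the largest difference are given. With brain, heart shared Eef1a2, the elongation factor of muscle and neurons, at 7.45 and 7.53 in frozen and FFPE heart, against 7.18 and 6.68 in brain, -1.20 and -1.04 in kidney and 0.32 and -0.49 in liver. Akap6, which anchors kinase A at the nuclear envelope, stood at 6.88 and 7.53 in heart against 7.20 and 6.89 in brain. Ank1, a membrane skeleton anchor, and Mtus2, a microtubule-associated protein, followed with differences of 5.05 and 4.30. For these 4 the frozen and FFPE heart levels lay within 1 log2 of each other. With kidney, the 5 were Dpep1, a dipeptidase of the kidney brush border, Trabd2b, an inhibitor of Wnt proteins, Bcam, Lama5 and Ccn2, a matrix signalling protein. The laminin Lama5 stood at 5.39 and 6.25 in frozen and FFPE heart, against 1.32 and 2.21 in brain, 5.19 and 5.73 in kidney and 1.86 and 1.83 in liver, and its receptor Bcam at 4.88 and 5.33 in heart against 4.33 and 4.47 in kidney. With liver, they were Hjv, Hspb8, a small heat shock protein, Plin5, Dsc2 and Steap4, a metalloreductase. Hjv, the iron-sensing coreceptor of liver and muscle, stood at 4.86 and 5.62 in frozen and FFPE heart, against -4.51 and -1.97 in brain, -2.28 and -2.96 in kidney and 5.05 and 5.25 in liver, and Plin5, which coats lipid droplets beside mitochondria, at 4.84 and 4.31 in heart against 5.08 and 4.55 in liver.

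Most genes 2-fold higher in 1 preservation were so in both. Of 2472 genes at least 2-fold higher in frozen heart, 75.8% were also 2-fold higher in FFPE heart, and of 2676 in FFPE heart 70.0% were in frozen heart. For genes 2-fold lower the shares were 71.3% of 2743 in frozen heart and 53.1% of 3681 in FFPE heart. Genes 2-fold higher in both made up 12.6% of all tested and genes 2-fold lower in both 13.2%. In the opposite pattern, 171 genes were 2-fold higher in frozen heart and 2-fold lower in FFPE heart, and 18 the other way. Of these 171, 123 (71.9%) had brain as the highest of the 3 other frozen organs, against 44.1% of all genes tested, and 135 had 3 counts or fewer in FFPE heart. With a level of at least 3 in a heart column and ranked by the gap, the genes named were Pde10a, Penk, Trank1, Bsn, Cplx2, Kif1a and Gria1. Bsn, a scaffold of nerve endings, stood at 3.95 and 0.10 in frozen and FFPE heart, against 7.75 and 8.05 in brain, -0.59 and 0.072 in kidney and -0.63 and -3.66 in liver, and Gria1, a glutamate receptor subunit, at 3.01 and -0.63 in frozen and FFPE heart, against 7.08 and 7.01 in brain, -1.55 and -1.83 in kidney and -0.42 and -3.66 in liver. For all 7 the highest frozen and FFPE levels were in brain. In the other direction the genes named were Bpgm, a red cell enzyme, at 2.10 in frozen and 4.19 in FFPE heart, and Mrps6, a mitochondrial ribosome protein, at 1.53 and 3.11. These differences between preservations rest on 1 column each and were not tested.

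**Figure D5:**
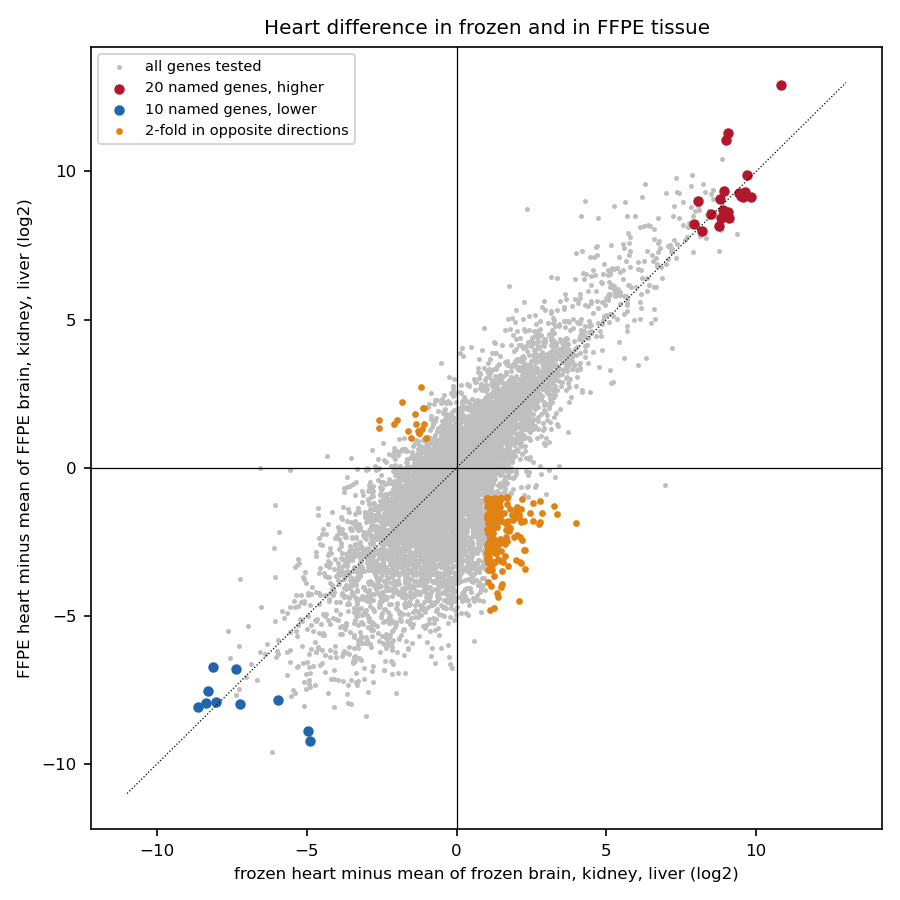
Heart minus the mean of brain, kidney and liver (log2) in frozen tissue (horizontal) and FFPE tissue (vertical), with 1 point per gene tested. The 20 genes ranked highest (red) and 10 ranked lowest (blue) lie near the dotted line of equal difference, while the orange points are the genes 2-fold higher in 1 preservation and 2-fold lower in the other, 171 of them to the lower right.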

How the data were processed

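MeRIP-Seq libraries of 4 mouse organs, each preserved as Frozen or FFPE, were made after Trizol extraction and 20 minutes of shearing with PIXUL, a sonicator, and the Zymo-Seq RiboFree kit, per the labels' protocols. HISAT2, featureCounts, limma and mm10 are named without versions in the submitters' processing notes. The authors deposited log2 normalised values per gene, which are log2 CPM computed from the count plus 0.5 and a scaled library size. Whole counts were recovered from them for 100% of values within a tolerance of 0.001. The 8 columns of another mark were not used, nor were the Input libraries.

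Testing was limited to the 14864 genes whose log2 values exceeded 0 in 2 or more of the 8 m6A columns. limma 3.58.1 in R 4.3.3 fitted organ and preservation as additive terms with 3 residual degrees of freedom, with eBayes on the mean level trend and Benjamini-Hochberg adjustment over all genes tested, called at 0.05. The contrast was heart minus the mean of brain, kidney and liver. Each column counts as 1 value. The fit was tried on simulated data with independent noise at the variance of the fit and no differences among the other organs. Only genes with a mean level of at least 3 were changed. Of 100 genes changed by 1 log2 it recovered 80, and of 100 changed by 2 log2 all 100. In this contrast there were 12 false calls among the unchanged genes of the 14864. The simulation held no brain transcripts in heart, no preservation gaps that differ by organ and no floor at low counts, so it does not measure errors from these.

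Members, gene lists and pairs were chosen with earlier results of these data known. Named genes were, with a mean heart log2 level of at least 3 and leaving out unnamed gene models, the 20 called higher with the largest smallest difference from another organ, the 10 most strongly lower below all organs, 5 shared with each organ, the 10 with the largest gap between preservations among those 2-fold in opposite directions, and list members as examples. Some genes that this rule names are not reported here. For the genes lower in heart the level of 3 was required in the other organs, and for the gap in 1 heart column. Gene positions and sequences came from RefSeq (GRCm38.p6), matched by gene ID for 25275 of 27179 genes. Alternatives were other scalings, filters, offsets and weights, no trend, no preservation term, and leaving out columns. Figures and summaries used Python 3.11.15.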

Additional observations from a re-analysis of the deposited data

Results flagged for a closer look

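The difference of heart from the other organs took opposite directions in frozen and FFPE tissue for a small set of genes. There were 171 genes at least 2-fold higher in frozen heart and 2-fold lower in FFPE heart, with a median level of 0.43 in frozen and -2.96 in FFPE heart. The reverse held for 18 genes. With 1 column for each organ and preservation, the difference between preservations was not tested.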

How the results depend on the processing

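Of 182 named genes, 153 were called, and over 22 alternative settings 3787 of their values kept direction and call, 111 lost the call, 47 gained one and 13 changed sign. Genes called higher in heart numbered 1107 with scaling by total gene counts and ranged over 1094 to 2594 when 1 column was left out, and genes called lower over 1402 to 2859, the lowest of both without FFPE heart. As a share of all calls, genes higher in heart made up 46.8% as reported, 54.4% after quantile normalisation, 56.6% with columns centred on their medians, 37.9% with scaling by counts outside ribosomal genes and 24.0% by total gene counts. Against single organs, scaling by total gene counts gave 990 higher and 7827 lower against brain, 736 higher against kidney and 1515 lower against liver. Scaling by counts outside ribosomal genes gave 5899 lower against brain, and 1278 higher and 4074 lower against kidney, and the stricter filter 2480 lower against brain. Leaving out 1 column gave 1935 to 3061 higher and 2180 to 4303 lower against brain, 1050 to 2348 and 1212 to 2802 against kidney, and 2265 to 3042 and 2169 to 2779 against liver. Genes higher in both preservations numbered 831 at 4-fold and 1246 with the stricter filter, genes lower in both 771 and 1148, and genes in opposite directions 9 and 12, or 640 with no filter. Without the brain columns the difference changed sign to -0.20 for Acads, -0.043 for Acsl1, -0.028 for Hadh, 0.97 for Ckb, 1.96 for Cplx2, -1.62 for Ppara and -1.34 for Suclg2, since those columns no longer entered the mean. Without the liver columns it changed to 0.95 for Fn1 and 0.25 for Sntb1, after quantile normalisation to -0.033 for COX1 and -1.13 for Malat1, and without FFPE heart to -1.09 for Bpgm (leaving out 1 column gave -1.09 to 1.46) and 1.08 for Cplx2 (-1.64 to 1.08); for the scalings and the left-out heart column the cause was not tested. The call was lost without FFPE heart for Adrb1, Bmp10, Ckb, Cldn5, Cpt1b, Fabp5, Hba-a1, Hcn4, Mybphl, Myh4, Rbm15b, Slc17a7, Slc2a1, Sntb1, Srf and Tpm2, without frozen heart for Adrb1, COX1, Ckb, Cldn5, Cpt1b, Fabp5, Myh4, Nr2f2, Pgam1, Rbm15b, Slc25a5, Sntb1 and Stard10, and without 1 column of another organ for 1 to 7 of the named genes. Levels near 3 counts limit genes that the other organs lack. No paired analysis was possible because the columns carry no replicate number to block on. Preservation, which the fit holds as a term, matches columns across organs, and without that term 1969 genes were higher and 2103 lower.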

Other observations

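Among genes of fuel choice, 2 stood well apart between the heart columns. Pdk4, which shuts off pyruvate oxidation, stood at 9.78 and 6.39 in frozen and FFPE heart, against 2.53 and 1.37 in brain, 5.74 and 4.08 in kidney and 2.89 and 3.28 in liver. It was called higher in heart (4.77 ± 0.55, adjusted p = 0.000301 in limma), and frozen heart lay 3.40 log2 above FFPE heart. Ucp3, a mitochondrial carrier of muscle, stood at 5.29 and 2.60 in frozen and FFPE heart, against 0.011 and -1.03 in brain, -1.55 and -2.12 in kidney and -2.01 and -3.66 in liver, with frozen heart 2.69 log2 above FFPE heart. Ucp3 passed the filter only with the help of the heart columns. Pdk4 and Ucp3 were chosen after their values were seen, and the gaps rest on 1 column each and were not tested.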
